A study of Mus musculus with 12 samples.

Results

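The genes described here are 43 oligodendrocyte lineage and myelin genes, a list of precursor, newly formed and mature stage genes taken by symbol, with each gene read from its single-symbol probe set on the array. All 43 were measured, each by 1 probe set, among 19248 genes in all. The data were log2 expression values from the striatum of 12 mice aged 8 weeks, 3 in each of 4 groups. HD_p62KO mice carried a Huntington's disease (HD) transgene and a p62 knockout, and HD_p62WT mice carried the transgene with normal p62. NT_p62KO mice were non-transgenic with the p62 knockout, and NT_p62WT mice were non-transgenic with normal p62. The cross asked how loss of p62, an autophagy cargo receptor encoded by Sqstm1, alters the transcriptome of the HD model. The transgene's line and promoter, the strain background, the sex of the mice and the tissues that lack p62 were not stated in the labels read here.

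Oligodendrocytes arise from dividing precursors that pass through a committed, newly formed stage before they wrap axons in myelin, a stack of lipid-rich membrane. Transcription factors such as OLIG2, SOX10 and MYRF drive that sequence, and the mature cell then makes large amounts of a few structural proteins and of the glycolipid galactosylceramide. In the striatum, myelin lies mostly in fibre bundles that cross the tissue between the projection neurons.

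The arrays had medians between 7.70 and 7.73 on the log2 scale, and the SD over all genes of an array ran from 1.643 to 1.728 in HD mice, against 1.585 to 1.67 in non-transgenic mice. Sqstm1 lay between 8.92 and 9.13 in HD_p62KO mice and between 11.26 and 11.75 in HD_p62WT mice. It lay between 8.44 and 8.52 in NT_p62KO mice and between 11.19 and 11.35 in NT_p62WT mice. Levels of 8 striatal projection neuron markers, summed on the linear scale, ran from 17500 to 19100 in HD mice, against 24700 to 29800 in non-transgenic mice. Those of 8 choroid plexus markers were 1200, 8730 and 4270 in HD_p62KO mice and 5770, 3060 and 1240 in HD_p62WT mice, against 5240, 5160 and 5700 in NT_p62KO mice and 1260, 2120 and 1670 in NT_p62WT mice. All 3 NT_p62KO mice were thus above all 3 NT_p62WT mice, while the HD groups overlapped.

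The mean HD effect is the average of the HD minus non-transgenic differences with and without p62. Of the 43 members, 8 were lower and 4 higher in HD mice (limma, Benjamini-Hochberg adjusted p below 0.05 over all genes). The lower genes were Tspan2, Fa2h, Car2, Cldn11, Ugt8a, Mal, Gjc3 and Mobp, and the higher genes were Enpp6, Apod, Plxnb3 and Bmp4. Over all genes 35% passed in either direction, so the 12 members, 27.9% of the list, are a smaller share than that of all genes. The lower members made up 18.6% of the list, against 15% of all genes, and the higher members 9.3%, against 19.9%. At an unadjusted p below 0.05 there were 14 of the 43 members, a smaller share than the 46.9% of all genes. In 11 of the members, 25.6%, the HD and non-transgenic mice did not overlap, against 16.2% of all genes. The median difference of the members was -0.04, against -0.02 over all genes. In bulk tissue, fewer oligodendrocytes and less of a transcript per oligodendrocyte cannot be told apart.

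**Figure D1:**
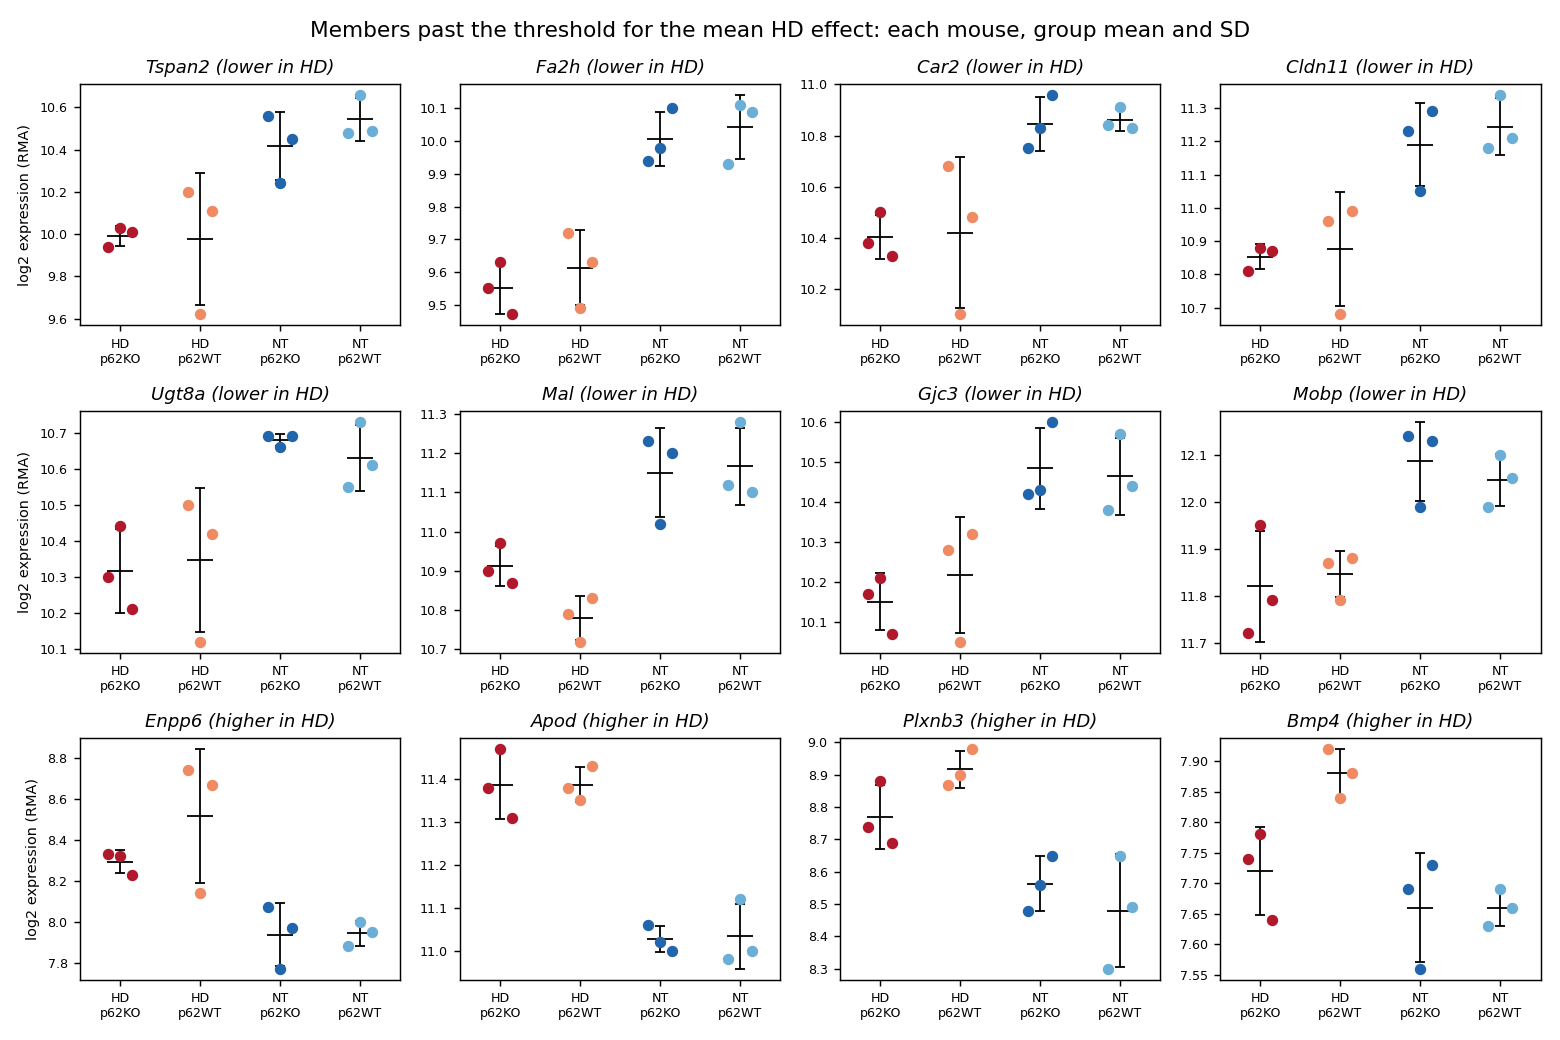
Log2 expression (y axis, its own range in each panel) of the 12 members past the threshold for the mean HD effect, in each of the 12 mice by group (x axis); points are mice, and bars are the group mean and SD (n = 3). In 11 of the 12 panels the 6 HD mice do not overlap the 6 non-transgenic mice, and in the panel of Bmp4 they do.

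Of the 3 enzymes that make the galactolipids of myelin, 2 were lower in HD mice for the mean HD effect and 1 did not pass. Over all genes 15% were lower and 19.9% higher, and a share of 3 genes says little. Fa2h encodes the hydroxylase that makes the 2-hydroxy fatty acids of myelin lipids. Its log2 level was 9.55, 9.63 and 9.47 in HD_p62KO mice and 9.72, 9.49 and 9.63 in HD_p62WT mice, against 9.94, 9.98 and 10.10 in NT_p62KO mice and 9.93, 10.11 and 10.09 in NT_p62WT mice. Every HD mouse lay below every non-transgenic mouse, and the mean HD effect was -0.45 ± 0.059 (SE; limma, adjusted p = 0.000344), a level 1.36-fold lower. Ugt8a, the galactosyltransferase that makes galactosylceramide, was at 10.30, 10.44 and 10.21 in HD_p62KO mice and 10.50, 10.12 and 10.42 in HD_p62WT mice. Its level was 10.69, 10.66 and 10.69 in NT_p62KO mice and 10.55, 10.73 and 10.61 in NT_p62WT mice, and the groups did not overlap. The mean HD effect was -0.32 ± 0.070 (SE; limma, adjusted p = 0.00492). Gal3st1, the sulfotransferase that turns galactosylceramide into sulfatide, had a mean HD effect of -0.15 ± 0.066 (SE), which did not pass (limma, adjusted p = 0.101).

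Myelin structural and membrane proteins were lower or did not pass. Of 10 measured, 4 were lower, 0 higher and 6 did not pass for the mean HD effect, with a median of -0.07. Over all genes 15% were lower and 19.9% higher, with a median of -0.02. Tspan2, a tetraspanin, had the largest decrease among the members. Its log2 level was 9.94, 10.03 and 10.01 in HD_p62KO mice and 10.20, 9.62 and 10.11 in HD_p62WT mice, against 10.56, 10.24 and 10.45 in NT_p62KO mice and 10.48, 10.66 and 10.49 in NT_p62WT mice. HD mice and non-transgenic mice did not overlap, although HD_p62WT replicate 1 at 10.20 came close to NT_p62KO replicate 2 at 10.24. The mean HD effect was -0.50 ± 0.095 (SE; limma, adjusted p = 0.00266).

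Cldn11, the claudin that seals myelin layers with tight junctions, was at 10.81, 10.88 and 10.87 in HD_p62KO mice and 10.96, 10.68 and 10.99 in HD_p62WT mice. It was at 11.23, 11.05 and 11.29 in NT_p62KO mice and 11.18, 11.34 and 11.21 in NT_p62WT mice, above every HD mouse. The mean HD effect was -0.35 ± 0.066 (SE; limma, adjusted p = 0.00236). Mal, a proteolipid of compact myelin, was at 10.90, 10.97 and 10.87 in HD_p62KO mice and 10.79, 10.72 and 10.83 in HD_p62WT mice, against 11.23, 11.02 and 11.20 in NT_p62KO mice and 11.12, 11.28 and 11.10 in NT_p62WT mice. All 6 HD mice were below the 6 non-transgenic mice, by -0.31 ± 0.055 on average (SE; limma, adjusted p = 0.00167). Mobp, a basic protein of the myelin of the central nervous system, was at 11.72, 11.95 and 11.79 in HD_p62KO mice and 11.87, 11.79 and 11.88 in HD_p62WT mice. Its level was 12.14, 11.99 and 12.13 in NT_p62KO mice and 11.99, 12.10 and 12.05 in NT_p62WT mice, and the mean HD effect was -0.24 ± 0.054 (SE; limma, adjusted p = 0.00669).

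The genes most often used to mark myelin did not pass. Mbp, encoding myelin basic protein, was at 13.02, 13.05 and 12.87 in HD_p62KO mice and 13.06, 12.96 and 13.00 in HD_p62WT mice, against 13.01, 12.98 and 12.99 in NT_p62KO mice and 13.03, 13.05 and 12.96 in NT_p62WT mice. The 4 groups overlapped, and the 95% interval of the mean HD effect ran from -0.11 to 0.10. Mag, an adhesion protein of the innermost myelin layer, had an interval of -0.16 to 0.15, and Mog, a protein of the outer myelin surface, one of -0.15 to 0.18. That of Cnp, a phosphodiesterase of the myelin sheath, was -0.04 to 0.21. Each of these 4 intervals leaves out the fitted effects of Fa2h, Tspan2, Cldn11 and Mal. Opalin and Ermn, both proteins of maturing oligodendrocytes, had mean HD effects of -0.14 ± 0.11 and 0.08 ± 0.092 (SE).

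**Figure D2:**
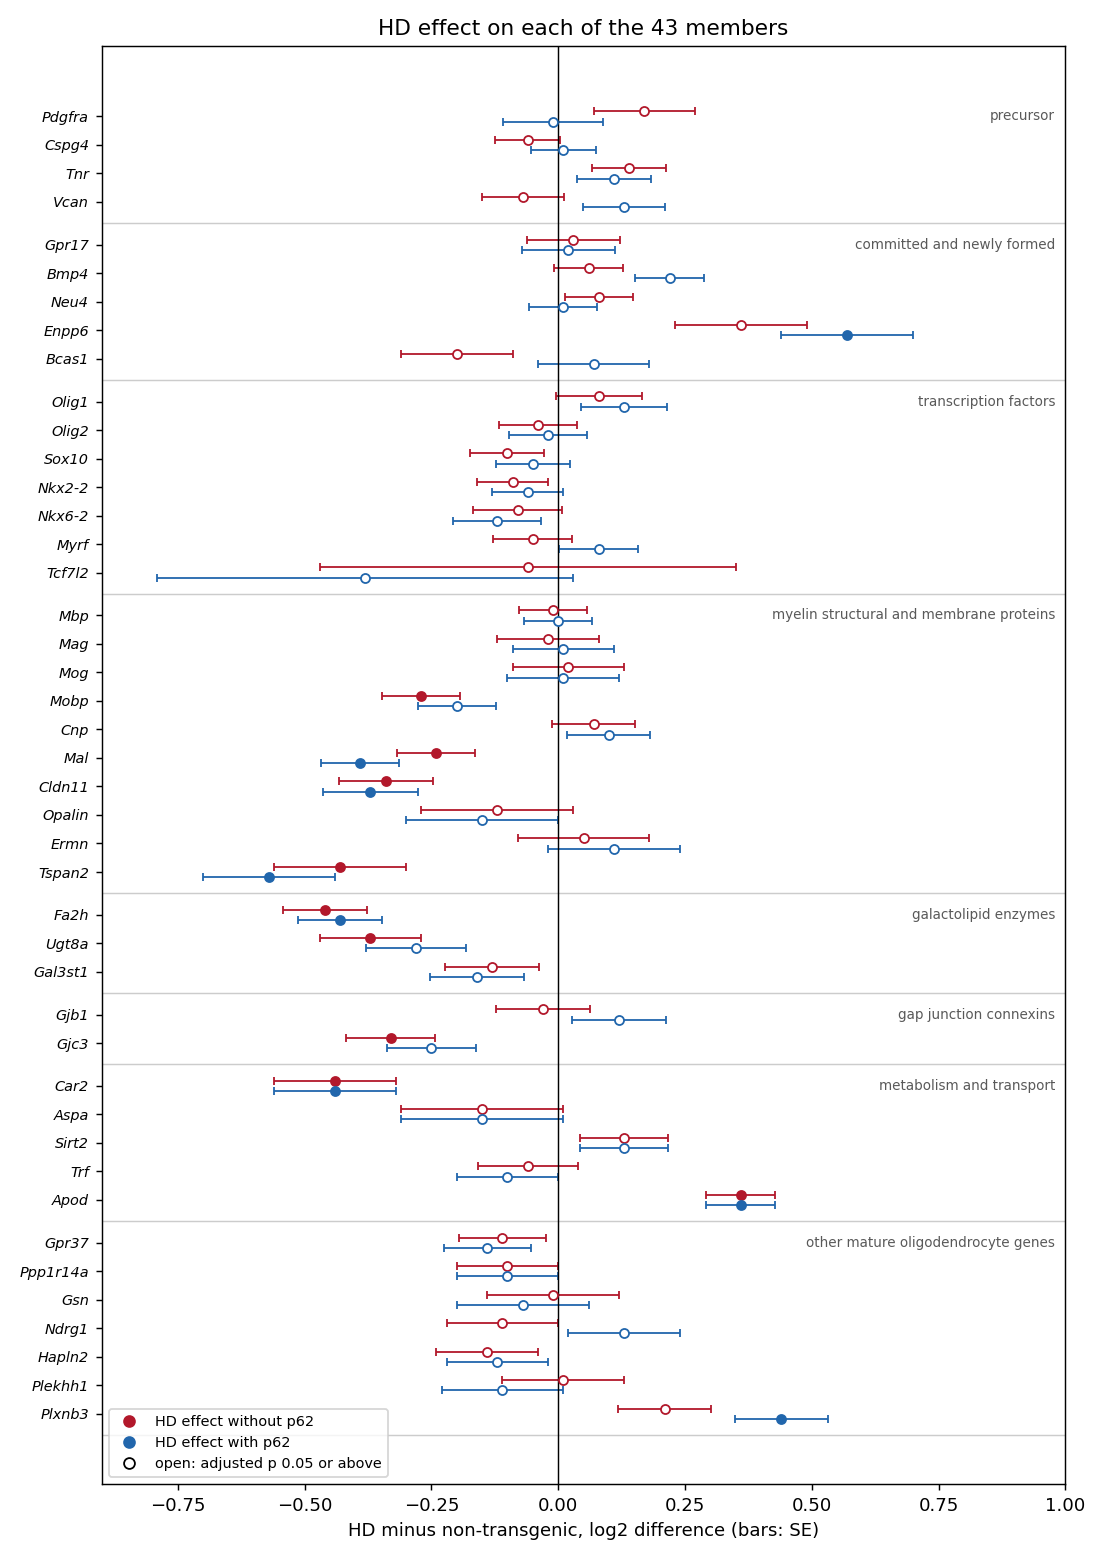
HD minus non-transgenic log2 difference (x axis) of each of the 43 members (y axis), grouped by role, in mice without p62 and with p62; bars are SE, and filled points have an adjusted p below 0.05. Lower members sit among the myelin proteins, galactolipid enzymes, connexins and metabolic genes, while Mbp, Mag and Mog lie at about 0 in both p62 genotypes.

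Among genes of metabolism, transport and coupling, Car2 and Gjc3 were lower and Apod was higher. Car2, a carbonic anhydrase abundant in oligodendrocytes, was at 10.38, 10.50 and 10.33 in HD_p62KO mice and 10.68, 10.10 and 10.48 in HD_p62WT mice, against 10.75, 10.83 and 10.96 in NT_p62KO mice and 10.84, 10.91 and 10.83 in NT_p62WT mice. Its mean HD effect was -0.44 ± 0.086 (SE; limma, adjusted p = 0.00302), and the 3 HD_p62WT mice were spread over a range wider than the effect. Gjc3, a connexin of oligodendrocytes, was at 10.17, 10.21 and 10.07 in HD_p62KO mice and 10.28, 10.05 and 10.32 in HD_p62WT mice. It was at 10.42, 10.43 and 10.60 in NT_p62KO mice and 10.38, 10.57 and 10.44 in NT_p62WT mice, with a mean HD effect of -0.29 ± 0.063 (SE; limma, adjusted p = 0.00483). The other connexin, Gjb1, had a mean HD effect of 0.04 ± 0.066 (SE), which did not pass.

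Apod, encoding apolipoprotein D, a lipid carrier made by mature oligodendrocytes and also by astrocytes, rose in HD mice. It was at 11.38, 11.47 and 11.31 in HD_p62KO mice and 11.38, 11.35 and 11.43 in HD_p62WT mice, against 11.06, 11.02 and 11.00 in NT_p62KO mice and 10.98, 11.12 and 11.00 in NT_p62WT mice. The HD mice lay well above the non-transgenic mice, by 0.36 ± 0.048 on average (SE; limma, adjusted p = 0.000394, 1.28-fold). Plxnb3, a plexin receptor expressed by oligodendrocytes, was at 8.74, 8.88 and 8.69 in HD_p62KO mice and 8.87, 8.90 and 8.98 in HD_p62WT mice. It was at 8.48, 8.56 and 8.65 in NT_p62KO mice and 8.30, 8.65 and 8.49 in NT_p62WT mice, a mean HD effect of 0.33 ± 0.065 (SE; limma, adjusted p = 0.00345).

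Genes of the committed and newly formed stage were higher or did not pass. Enpp6, a choline-specific phosphodiesterase that marks oligodendrocytes as they begin to form myelin, was at 8.33, 8.32 and 8.23 in HD_p62KO mice and 8.74, 8.14 and 8.67 in HD_p62WT mice. Its level was 8.07, 7.77 and 7.97 in NT_p62KO mice and 7.88, 8.00 and 7.95 in NT_p62WT mice. Every HD mouse was above every non-transgenic mouse, and the mean HD effect of 0.46 ± 0.095 (SE; limma, adjusted p = 0.00374) was the largest increase among the members. With array SD as a covariate the effect was 0.37 and did not pass (adjusted p = 0.0754). Bmp4, a secreted signal made at the committed stage, was at 7.74, 7.78 and 7.64 in HD_p62KO mice and 7.92, 7.84 and 7.88 in HD_p62WT mice, against 7.69, 7.56 and 7.73 in NT_p62KO mice and 7.63, 7.69 and 7.66 in NT_p62WT mice. Its mean HD effect of 0.14 ± 0.048 (SE; limma, adjusted p = 0.0428) sat close to the threshold. The call was lost without any 1 of 9 mice (adjusted p up to 0.101), namely HD_p62KO replicates 1 and 2, HD_p62WT replicates 1 and 3, NT_p62KO replicates 1 and 2 and the 3 NT_p62WT mice. Gpr17, a receptor that holds committed cells back from maturing, Neu4, a sialidase, and Bcas1, a protein of early myelinating cells, had mean HD effects of 0.03 ± 0.065, 0.05 ± 0.047 and -0.07 ± 0.075 (SE).

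Precursor genes and transcription factors of the lineage gave 0 calls among 4 and 7 members (limma), and 1 of the 4 and 0 of the 7 had an unadjusted p below 0.05. Over all genes 35% passed for the mean HD effect and 46.9% had an unadjusted p below 0.05. Pdgfra, the growth factor receptor that keeps precursors dividing, was at 8.85, 9.18 and 9.07 in HD_p62KO mice and 8.98, 8.89 and 9.00 in HD_p62WT mice, against 8.78, 8.96 and 8.85 in NT_p62KO mice and 8.93, 9.14 and 8.85 in NT_p62WT mice. The groups overlapped, with a 95% interval of -0.07 to 0.23 for the mean HD effect. Cspg4, the NG2 proteoglycan, and Vcan, the proteoglycan versican, had effects of -0.03 ± 0.045 and 0.03 ± 0.057 (SE), and Tnr, a matrix protein of precursors and some neurons, had 0.13 ± 0.052 (SE; limma, adjusted p = 0.0747). The intervals were -0.15 to 0.09 for Olig2, -0.19 to 0.03 for Sox10 and -0.11 to 0.13 for Myrf, the factor that switches on myelin genes. Olig1, Nkx2-2 and Nkx6-2 had effects of 0.11 ± 0.060, -0.08 ± 0.049 and -0.10 ± 0.062 (SE).

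Tcf7l2, a Wnt pathway factor of newly formed oligodendrocytes that is also abundant in thalamic neurons, had the widest spread among the members. It was at 8.78, 8.45 and 8.23 in HD_p62KO mice and 8.28, 8.02 and 8.46 in HD_p62WT mice, against 9.46, 7.93 and 8.25 in NT_p62KO mice and 8.20, 9.59 and 8.10 in NT_p62WT mice. NT_p62KO replicate 1 and NT_p62WT replicate 2 stood apart from the other 10 mice. Its residual SD was 0.606, against a median of 0.114 over the members and 0.118 over all genes, and its mean HD effect of -0.22 ± 0.29 (SE) has an interval too wide to compare with the rest.

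The remaining mature members did not pass. Aspa, which breaks down N-acetylaspartate, and Trf, the iron carrier transferrin, had mean HD effects of -0.15 ± 0.11 and -0.08 ± 0.070 (SE), and the deacetylase Sirt2 had 0.13 ± 0.061 (SE). Gpr37, an orphan receptor of myelinating cells, Hapln2, a matrix link protein of the nodes of Ranvier, and Ppp1r14a, a phosphatase inhibitor, lay between -0.13 and -0.10. Gsn, an actin-severing protein, Plekhh1 and Ndrg1 lay between -0.05 and 0.01.

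Averaged over each role and set to the NT_p62WT mean, the 3 galactolipid enzymes were lower in every HD mouse than in every non-transgenic mouse. Their mean deviation was -0.33, -0.24 and -0.42 in HD_p62KO mice and -0.18, -0.46 and -0.23 in HD_p62WT mice, against 0.00, -0.08 and 0.05 in NT_p62KO mice and -0.09, 0.09 and 0.00 in NT_p62WT mice. The measure is given with no test, because the members were chosen with results known. The 27 mature genes together averaged -0.16, -0.02 and -0.23 in HD_p62KO mice and -0.01, -0.26 and -0.03 in HD_p62WT mice. In NT_p62KO mice they averaged 0.02, -0.10 and 0.01 and in NT_p62WT mice -0.08, 0.09 and -0.02, so that HD and non-transgenic mice overlapped. HD_p62WT replicate 2 was the lowest mouse in the mature genes, the galactolipid enzymes and the myelin proteins (-0.33). Its array also had the smallest SD over genes among HD mice, at 1.643. The 5 committed and newly formed genes averaged 0.08, 0.03 and -0.02 in HD_p62KO mice and 0.23, 0.04 and 0.26 in HD_p62WT mice, against 0.02, -0.13 and 0.01 in NT_p62KO mice and -0.03, 0.09 and -0.05 in NT_p62WT mice.

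**Figure D3:**
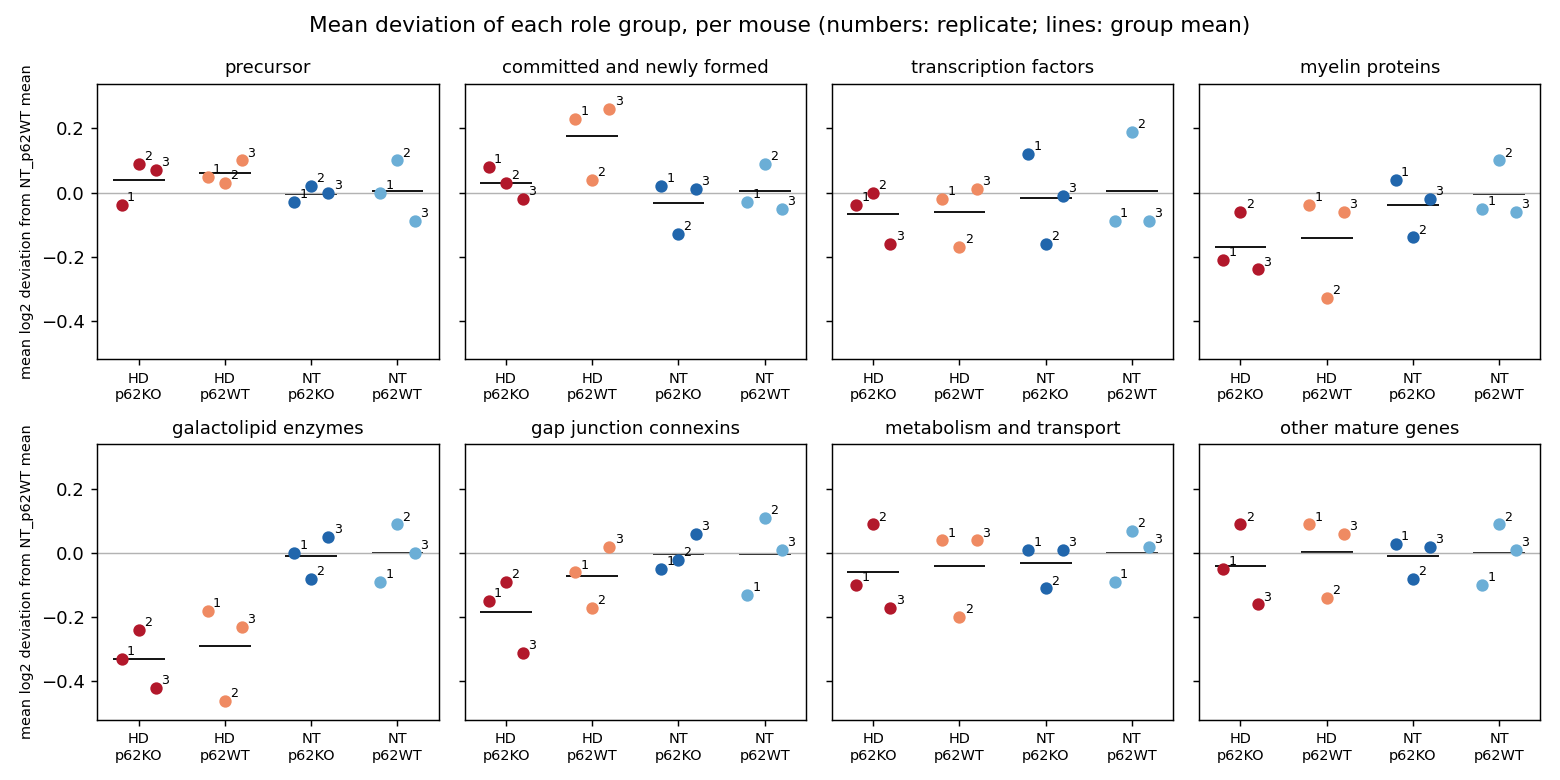
Mean log2 deviation from the NT_p62WT mean (y axis) of the members of each role, for each mouse by group (x axis); points are mice, numbers are replicates and lines are group means. The galactolipid enzymes separate the HD mice, between -0.46 and -0.18, from the non-transgenic mice, between -0.09 and 0.09, and HD_p62WT replicate 2 is the lowest mouse among the myelin proteins.

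Marker lists of other cell types are given beside these values. The mean deviation of 10 astrocyte markers was -0.27 to -0.14 in HD_p62KO mice and -0.23 to -0.18 in HD_p62WT mice, against -0.05 to -0.02 in NT_p62KO mice and -0.07 to 0.10 in NT_p62WT mice, and 5 of the 10 were lower for the mean HD effect. For 7 cortical excitatory neuron markers it was -0.91 to -0.01 in HD_p62KO mice and -0.75 to -0.42 in HD_p62WT mice, against -0.76 to 0.47 in NT_p62KO mice and -0.22 to 0.38 in NT_p62WT mice, with 1 of 7 lower. Microglia markers gave 0 calls among 8 and endothelial and mural markers 1 among 9. Of the 8 striatal projection neuron markers, 7 were lower and 1, Tac1, was higher. Over all genes 15% were lower and 19.9% higher for the mean HD effect. Of 4 measured Schwann cell markers, which would mark peripheral myelin, 2 were lower and 1 was higher, and their summed linear level was 483 to 576 in HD mice, against 509 to 645 in non-transgenic mice. No detection calls were used here, so a marker's presence could not be judged. The part of these cells and of array SD in the members' differences was not tested. With array SD as a covariate, 10 of the 43 members passed for the mean HD effect, the 8 lower members among them, and the calls without p62 were 3 in place of 9.

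The HD comparisons with and without p62 share no mice, but the spread behind both was estimated from all 12 mice together. Their calls are therefore not fully independent. With p62, 5 members were lower (11.6%, against 3.24% of all genes) and 3 were higher (6.98%, against 3.85%) in HD mice. In either direction these 8 were 18.6% of the list, against 7.1% of all genes. An unadjusted p below 0.05 was found for 12 of the 43 members, a slightly larger share than the 25.4% of all genes. Without p62, 8 were lower (18.6%, against 8.34%) and 1 was higher (2.33%, against 13.3%). These 9 were 20.9% of the list, against 21.7% of all genes. At an unadjusted p below 0.05 there were 11 of the 43, a smaller share than the 38.8% of all genes. Fa2h, Mal, Cldn11, Tspan2 and Car2 were lower and Apod was higher in both comparisons. Mobp, Ugt8a and Gjc3 were lower without p62, and with p62 they had values of -0.20 ± 0.077, -0.28 ± 0.099 and -0.25 ± 0.088 (SE; limma, adjusted p = 0.121, 0.099 and 0.103). Enpp6 and Plxnb3 were higher with p62, and without p62 they had values of 0.36 ± 0.13 and 0.21 ± 0.092 (SE; limma, adjusted p = 0.0741 and 0.112). In each of the 2 comparisons 13 of the 43 members, 30.2%, did not overlap between groups, against 33.1% of all genes with p62 and 39.4% without.

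Across the 43 members, the HD differences with and without p62 correlated at 0.87, against 0.76 across all 19248 genes, as a description across genes that are not independent. They had the same sign for 34 members (79.1%), against 80.8% of all genes. For none of the 43 did the HD effects with and without p62 differ past the threshold (limma, 0 calls, against 0% of all genes, and 0 with an unadjusted p below 0.05, against 3.45%). The HD effect without p62 minus that with p62 was -0.03 for Fa2h, with a 95% interval of -0.29 to 0.22. It was 0.14 for Mal (-0.09 to 0.38), -0.21 for Enpp6 (-0.63 to 0.20) and -0.23 for Plxnb3 (-0.51 to 0.06). For Mal, Enpp6 and Plxnb3 the interval reaches past the size of the mean HD effect.

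**Figure D4:**
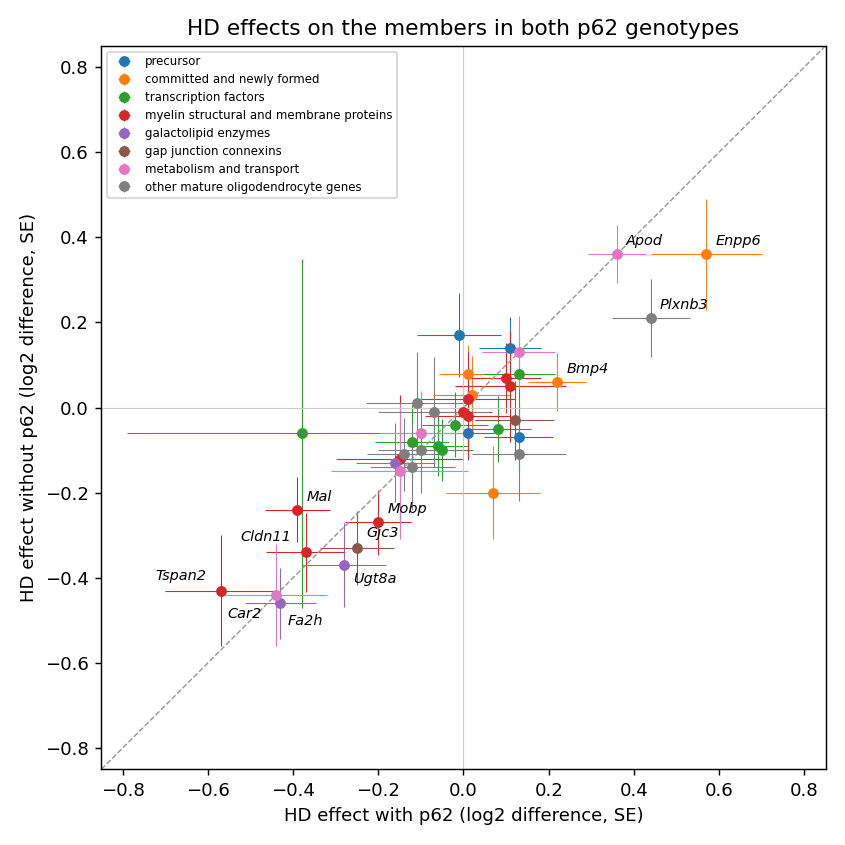
HD effect with p62 (x axis) against HD effect without p62 (y axis) for the 43 members, as log2 differences with SE bars and colours for role; the dashed line marks equal effects. The 8 members lower in the mean HD effect lie in the lower left and the 4 higher members in the upper right, and the correlation across members is 0.87.

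The counts within 1 p62 genotype depended on single mice. With p62, the 8 calls became 4 without HD_p62WT replicate 1, 2 without HD_p62WT replicate 3 and 2, 4 and 1 without NT_p62WT replicates 1, 2 and 3. Without p62, the 9 calls became 4 without HD_p62KO replicate 2, 2 without HD_p62KO replicate 3, 4 without NT_p62KO replicate 1 and 2 without NT_p62KO replicate 3. Of the 17 calls in these 2 comparisons, Fa2h and Apod without p62 passed without any 1 of the 12 mice. With array SD as a covariate 3 calls remained without p62, Fa2h, Ugt8a and Apod. For the mean HD effect, every lower member and Apod, Plxnb3 and Enpp6 passed without any 1 of the 12 mice.

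Loss of p62 gave 0 calls among the 43 members, in HD mice and in non-transgenic mice (limma, where 0.0052% of all genes, Sqstm1 alone, passed in each). The p62 difference was negative for 34 of the 43 members in HD mice and for 34 in non-transgenic mice, with a median of -0.03 in each. Over all genes it was negative for 9816 of 19248 in HD mice and for 10179 in non-transgenic mice. The members are not independent, and their shared sign was not tested. In HD mice 1 member, Bmp4, had an unadjusted p below 0.05 (-0.16 ± 0.068 SE, adjusted p = 1), against 2.88% of all genes, and in non-transgenic mice 0 did, against 3.32%. For Fa2h the p62 difference was -0.06 in HD mice, with a 95% interval of -0.24 to 0.12, and -0.03 in non-transgenic mice (-0.21 to 0.15). For Mbp it was -0.03 in HD mice (-0.17 to 0.12) and -0.02 in non-transgenic mice (-0.16 to 0.13). For Mal it was 0.13 in HD mice (-0.04 to 0.30), where HD_p62KO mice did not overlap HD_p62WT mice, and -0.01 in non-transgenic mice (-0.18 to 0.16). In HD mice 4 members did not overlap between p62 genotypes (9.3%, against 7.38% of all genes), and in non-transgenic mice 1 did not (2.33%, against 7.87%). NT_p62KO mice stood apart from NT_p62WT mice in the choroid plexus markers, of which 8 of 8 had positive p62 differences, 6 with an unadjusted p below 0.05 and 0 past the threshold (limma), with a median of 0.96. Their part in the members' values was not tested. The HD and p62 comparisons use the same mice, so their values are given side by side and not compared.

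Other genes of the lineage, taken from 3 further lists, also gave calls in both directions. Among 27 measured mature oligodendrocyte genes outside the 43, 6 were lower and 3 higher for the mean HD effect, with a median of -0.05. Over all genes 15% were lower and 19.9% higher for this effect. Klk6, a secreted protease of oligodendrocytes, fell by 0.76 on the log2 scale (SE 0.075; limma, adjusted p = 5.08e-05), more than any of the 43 members. Gamt, an enzyme of creatine synthesis, fell by 0.42 (SE 0.056) and the ephrin Efnb3 fell by 0.25 (SE 0.056). Anln, the actin-binding protein anillin, rose by 0.51 ± 0.084 (SE; adjusted p = 0.00124), and Plekhb1 did not pass at 0.13 ± 0.049 (SE).

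Of 15 further precursor and newly formed genes, 2 were lower and 1 higher (all genes: 15% and 19.9%), with a median of 0.01. Cacng4, an auxiliary subunit of AMPA receptors that neurons also express, fell by 0.57 (SE 0.049; limma, adjusted p = 1.83e-05), C1ql1 fell by 0.17 (SE 0.049) and the transcription factor Sox11 rose by 0.32 ± 0.064 (SE). Fyn, a kinase of the myelination signal, did not pass at 0.13 ± 0.055 (SE). Of 24 regulators of differentiation, 4 were higher and 7 lower (all genes: 19.9% and 15%), with a median of -0.02. Hdac2 and Hdac1, histone deacetylases present in most cells, rose by 0.53 ± 0.081 and 0.45 ± 0.077 (SE). Zfp488, a zinc finger factor of oligodendrocytes, rose by 0.26 ± 0.043 (SE; adjusted p = 0.0013). Id4, an inhibitor of basic helix-loop-helix factors, fell by 0.31 (SE 0.056; adjusted p = 0.00203), and Zeb2 had -0.12 ± 0.074 (SE).

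The called members were spread over 8 chromosomes. By the gene table (GRCm38.p6), 5 members lie on chromosome 3, and 4 of them, Car2, Cldn11, Tspan2 and Ugt8a, were lower in HD mice, while the fifth, Hapln2, did not pass. Car2 starts at position 14886269 and Cldn11 at 31149920, with Tspan2 at 102734770 and Ugt8a at 125865272, so they do not neighbour each other. Of all 914 measured genes on chromosome 3, 13.3% were lower, against 15% over the genome. Fa2h lies on chromosome 8, Mal on 2, Gjc3 on 5 and Mobp on 9.

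Promoters from 250 bases before to 50 bases after the start site were given by RefSeq (GRCm38.p6) for 33 of the 43 members. They were searched on both strands for the SOX core ACAAAG or ACAATG, the MYRF motif CTGGCAC or CTGGTAC and the OLIG E-box CAGCTG or CATCTG, taking the first start site listed for each gene. The searched motifs do not overlap one another in the sequences shown. The SOX core occurred in 15 of 33 members (45.5%), against 28.8% of 27025 promoters. It was in 1 of the 6 lower members searched (Fa2h and Car2 had no entry), 3 of 4 higher members and 11 of 23 members that did not pass. The MYRF motif occurred in 5 of 33 (15.2%, against 7.1%), in 0 of the 6 lower members, 0 of the 4 higher members and 5 of the 23 others. The E-box occurred in 12 of 33 (36.4%, against 30.4%). These are matches of letters and not sites shown to be bound, and a window with no match says nothing of the factor.

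Sequences of 2 lower and 2 higher members, picked by name, are shown with their matches marked. Of the other called members searched, Mal, Cldn11, Ugt8a and Bmp4 had 0 matches to any of the 3 motifs. Gjc3 had 1 E-box match and Enpp6 had 1 SOX core match. A link between matches and the direction of change was not tested. Capitals mark matches to any of the 3 motifs on either strand, and each sequence runs 5′ to 3′ on the gene's strand. Mobp, lower in HD mice, has 6 SOX core matches (chr9:120149492-120149791, plus strand).
Mobp: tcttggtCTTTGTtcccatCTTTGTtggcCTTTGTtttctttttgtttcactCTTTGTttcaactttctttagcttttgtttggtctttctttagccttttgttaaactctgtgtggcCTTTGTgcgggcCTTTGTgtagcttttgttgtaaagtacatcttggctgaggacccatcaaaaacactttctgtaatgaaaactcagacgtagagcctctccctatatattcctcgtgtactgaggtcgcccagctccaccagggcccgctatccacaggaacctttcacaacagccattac
Tspan2, with the largest decrease, has 1 E-box match in this window, and at its other listed start site, not shown, 1 SOX core match (chr3:102734520-102734819, plus strand).
Tspan2: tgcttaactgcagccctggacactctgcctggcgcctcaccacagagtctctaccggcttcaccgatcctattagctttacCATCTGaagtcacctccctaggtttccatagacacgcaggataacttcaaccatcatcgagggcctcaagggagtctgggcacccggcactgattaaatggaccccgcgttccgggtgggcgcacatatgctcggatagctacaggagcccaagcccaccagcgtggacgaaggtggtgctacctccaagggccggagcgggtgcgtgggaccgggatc
Apod, higher in HD mice, has 2 SOX core and 2 E-box matches (chr16:31314759-31315058, minus strand).
Apod: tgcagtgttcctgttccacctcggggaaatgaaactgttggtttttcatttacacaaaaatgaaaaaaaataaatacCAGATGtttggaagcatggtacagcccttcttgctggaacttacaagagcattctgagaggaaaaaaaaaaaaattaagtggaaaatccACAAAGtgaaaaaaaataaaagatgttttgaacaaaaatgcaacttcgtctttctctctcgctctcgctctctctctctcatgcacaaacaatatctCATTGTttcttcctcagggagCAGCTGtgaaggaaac
Plxnb3, also higher, has 3 SOX core and 2 E-box matches (chrX:73756853-73757152, plus strand).
Plxnb3: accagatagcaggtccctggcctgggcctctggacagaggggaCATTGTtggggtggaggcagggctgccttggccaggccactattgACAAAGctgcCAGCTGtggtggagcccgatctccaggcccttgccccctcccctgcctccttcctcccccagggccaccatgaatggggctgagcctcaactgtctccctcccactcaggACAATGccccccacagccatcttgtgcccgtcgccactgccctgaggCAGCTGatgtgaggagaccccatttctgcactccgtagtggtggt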

How the data were processed

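Frozen striatum gave total RNA, of which 100 ng a sample went into an Affymetrix labelling kit for whole transcripts, as the labels' protocols state. Log2 expression per probe set is what the authors deposited, and RMA is the tool that the submitters' processing notes name, without a version. Such values are set to a common scale between arrays, which removes any change common to most genes. Groups came from the sample titles, which call the samples biological replicates. The p-values measure only the spread between these samples.

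Of 24055 probe sets, 19942 had 1 symbol, 1225 had several and 2888 were not listed. The brightest probe set per gene was used, for 19248 genes. limma 3.58.1 (R 4.3.3) was fitted with 4 group means over the 12 samples, leaving 8 residual degrees of freedom, with Benjamini-Hochberg adjustment over all genes and a threshold of 0.05. Members, lists and the naming rule (every member, and per further list up to 4 called genes of smallest p and the brightest gene that did not pass) were chosen with earlier results of these data known. On simulated data of 19248 genes with 200 shifted, the mean HD effect fit found 82 of 100 genes shifted by 0.5 (log2). It found 99 of 100 shifted by 1, beside 12 false calls. In the data 35% of genes passed for this effect. The adjustment is stricter where fewer genes change, so these recoveries are not those of the data. Alternatives were other normalizations, a filter on dim genes, averaged probe sets, another variance model, array weights, fits of only 2 groups, array SD as a covariate, a replicate block, other thresholds and leaving out mice. Some genes of the further lists are not reported here.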

Additional observations from a re-analysis of the deposited data

How the results depend on the processing

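Over 24 alternatives, 10 of the 12 members called for the mean HD effect passed each time, among them all 8 lower members, and 0 calls in any HD comparison reversed. Some alternatives could not fail. Each member has 1 probe set, so averaging probe sets left its values unchanged, and an adjusted p below 0.1 keeps every call. The count of calls for the mean HD effect ran from 11 to 13 without any 1 mouse. The count with p62 (8 as reported) was 4 with only the 2 groups compared, 3 without the 3 arrays of smallest SD, 0 at an adjusted p below 0.01 and 1 to 8 without any 1 mouse. The count without p62 (9 as reported) was 3 with array SD as a covariate, 2 at an adjusted p below 0.01 and 2 to 10 without any 1 mouse. The fits with only 2 groups or without arrays hold fewer samples, and for array SD the cause was not tested. Leaving out the array of lowest SD in HD_p62KO, HD_p62WT and NT_p62KO, chosen after seeing the data, gave 7 calls with p62, 7 without and 13 for the mean HD effect. Both p62 comparisons and the difference of the HD effects had 0 calls among the members under every alternative run. With the replicate block the counts were 6 with p62, 6 without and 11 for the mean HD effect. Same-numbered mice correlated above 0.1 in their deviations in 4 of 18 pairs (-0.337 to 0.206), so the numbers were not taken to pair the mice. Quantile normalization moved 11 of the role means per mouse by more than the SD within their group, 6 of them in NT_p62KO replicate 3. With 3 mice per group, differences of about 0.5 on the log2 scale were often missed in the simulated data (60 of 100 recovered with p62). Only 200 of 19248 genes were shifted there, while 7.1% of all genes passed with p62 in the data. The recovery in the data can therefore differ.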
